A study of Mus musculus with 6 samples.

Results

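Long noncoding RNAs (lncRNAs) that lie opposite protein-coding genes were examined in the prefrontal cortex (PFC) of stressed and control mice. A transcript of the lncRNA table was included if its locus held no protein-coding transcript, if its genomic span overlapped an mRNA of the study on the opposite strand and if it overlapped none on its own strand. Of 25974 lncRNA transcripts, 18722 lay outside mRNA loci and 682 met the rule. A level of at least 0.5 FPKM (fragments scaled by transcript length and by library size) in at least 3 of the 6 mice was reached by 594 of the 682, and 88 were below it. The 594 antisense transcripts came from 548 loci and lay opposite 490 genes, here called partners. The level of a partner was the sum of FPKM over its mRNA transcripts, and where a transcript overlapped several genes the one with the longest overlap was its partner.

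The mice were male C57BL/6, 6 to 8 weeks old. The 3 RSD mice had gone through repeated social defeat, in which an aggressive CD-1 intruder was placed in the home cage on consecutive nights. The 3 controls stayed in another cage and another room without an intruder, so that defeat and housing cannot be told apart. Stressed mice entered sequencing after anxiety-like behavior in the elevated plus maze, and tissue was taken right after that test. Ribosomal RNA was depleted and the library kit marked the strand of each RNA, but the strand setting used for quantification is not given in the sources used here. Each library came from another mouse.

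Antisense transcripts are RNAs made from the DNA strand opposite a gene. In mammals some are known to keep the gene they overlap silent in cis, as at several imprinted loci, others are made from the same CpG-rich promoter as the gene and run the other way, and others pair with the sense RNA or have no known role. When both strands are copied, the complementary RNAs can form a duplex that is bound, edited or cut by enzymes that recognize double-stranded RNA.

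The pairs differed in how the transcripts faced each other. The start and end of a partner are here those of the outermost mRNA transcripts of the study. In 191 of 594 (32.2%) the antisense transcript covered the start of its partner without covering its end, which is called head-to-head here, and in 92 (15.5%) it covered the end alone, or tail-to-tail. In 292 (49.2%) it lay inside the span of the partner, and in 19 (3.2%) it spanned the partner whole. Of the head-to-head transcripts, 141 of 191 began within 1000 bases of the start of the partner, and the median distance over the 191 was 459 bases. Of all 594, 127 began within 5000 bases downstream of an mRNA transcript on their own strand. For 29 antisense transcripts, 26 of them head-to-head, the first base lay within the RefSeq promoter window of the partner, which runs from 250 bases before to 50 bases after the annotated start. Of these promoters 5 are shown, because here a single stretch of DNA lies before the start of the gene and inside the antisense transcript. Each is given on the strand of the gene from RefSeq on GRCm38.p6, from 250 bases before the start to 30 bases after it, and capitals mark the bases that the antisense transcript covers.
Ctdspl, chr9:118926286-118926565, plus strand: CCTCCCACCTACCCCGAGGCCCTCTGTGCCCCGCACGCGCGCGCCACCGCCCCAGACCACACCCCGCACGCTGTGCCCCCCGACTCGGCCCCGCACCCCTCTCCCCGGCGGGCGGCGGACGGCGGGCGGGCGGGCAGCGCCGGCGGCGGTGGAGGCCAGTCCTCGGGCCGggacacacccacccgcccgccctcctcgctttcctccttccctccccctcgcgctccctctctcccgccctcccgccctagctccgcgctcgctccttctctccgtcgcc
Idh3b, chr2:130284422-130284701, minus strand: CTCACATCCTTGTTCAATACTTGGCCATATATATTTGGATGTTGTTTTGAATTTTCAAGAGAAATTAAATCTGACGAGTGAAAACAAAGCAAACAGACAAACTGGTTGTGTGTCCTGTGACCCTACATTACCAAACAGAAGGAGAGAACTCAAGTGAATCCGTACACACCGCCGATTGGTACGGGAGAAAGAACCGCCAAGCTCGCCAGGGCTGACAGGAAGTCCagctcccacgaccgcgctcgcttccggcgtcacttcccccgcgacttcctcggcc
Mkln1, chr6:31398578-31398857, plus strand: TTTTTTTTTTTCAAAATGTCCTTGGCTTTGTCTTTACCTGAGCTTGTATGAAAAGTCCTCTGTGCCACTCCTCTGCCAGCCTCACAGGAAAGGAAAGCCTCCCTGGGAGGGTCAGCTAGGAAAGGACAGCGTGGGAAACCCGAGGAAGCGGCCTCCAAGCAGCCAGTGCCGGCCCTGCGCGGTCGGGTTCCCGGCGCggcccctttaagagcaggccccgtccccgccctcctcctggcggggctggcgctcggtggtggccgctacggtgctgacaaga
Emx2, chr19:59458440-59458719, plus strand: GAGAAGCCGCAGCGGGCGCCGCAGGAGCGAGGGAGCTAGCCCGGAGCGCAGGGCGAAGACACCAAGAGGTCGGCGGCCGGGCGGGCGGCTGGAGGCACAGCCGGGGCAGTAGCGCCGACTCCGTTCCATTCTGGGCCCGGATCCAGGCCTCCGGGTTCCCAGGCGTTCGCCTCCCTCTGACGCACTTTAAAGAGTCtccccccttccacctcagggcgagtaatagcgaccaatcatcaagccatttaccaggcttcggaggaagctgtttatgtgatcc
Gadd45a, chr6:67037378-67037657, minus strand: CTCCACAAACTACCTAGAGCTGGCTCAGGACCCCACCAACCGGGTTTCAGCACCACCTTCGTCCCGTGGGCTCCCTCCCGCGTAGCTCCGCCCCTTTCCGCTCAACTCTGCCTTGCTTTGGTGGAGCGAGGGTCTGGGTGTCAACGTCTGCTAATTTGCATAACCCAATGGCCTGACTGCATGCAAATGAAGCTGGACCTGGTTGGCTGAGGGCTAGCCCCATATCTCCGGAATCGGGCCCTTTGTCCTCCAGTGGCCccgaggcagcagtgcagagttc

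In the Gadd45a promoter 258 of the 280 bases were covered by the antisense transcript, and in the Ctdspl promoter 170 were. The Ctdspl stretch held 38 CpG dinucleotides and the Gadd45a stretch 12. Over the full windows of 300 bases, the letters GGGCGG, the core of the GC box, were found on either strand in 21 of the 29 (72.4%), in 60.4% of 492 windows of all partners and in 46.2% of 21263 windows of protein-coding genes. The letters TATAAA, on either strand, were found in 0 of the 29, in 6.3% of the windows of all partners and in 12.6% of those of protein-coding genes. The median number of CpG dinucleotides was 34, 22 and 13 in these sets. These are counts of letters and not of bound sites.

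The sixth sequence shows the promoter region of the pair whose antisense transcript had the smallest p among those called higher. Ino80d encodes a subunit of the INO80 chromatin remodeling complex, and RefSeq places the start of the noncoding gene Ino80dos on the other strand close to its own start. The stretch is written on the plus strand, that of Ino80dos. Capitals mark the 203 bases between the RefSeq start of Ino80d on their left and that of Ino80dos on their right, and the antisense transcript of the study covers the whole stretch.
Ino80dos, chr1:63114238-63114500, plus strand: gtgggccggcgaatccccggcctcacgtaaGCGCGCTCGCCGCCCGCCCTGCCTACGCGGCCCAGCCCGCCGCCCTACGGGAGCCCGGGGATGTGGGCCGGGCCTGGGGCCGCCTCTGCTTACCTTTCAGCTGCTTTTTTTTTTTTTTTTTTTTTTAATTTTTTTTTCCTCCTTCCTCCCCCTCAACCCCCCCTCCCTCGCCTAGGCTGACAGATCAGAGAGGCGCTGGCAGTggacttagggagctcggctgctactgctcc

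Read counts per library are not known from FPKM values. Of the marker genes of other regions, 1 of 7 for choroid plexus and 2 of 8 for olfactory bulb and septum passed the filter. Of the markers of striatal neurons 6 of 8 passed it, and of those of excitatory neurons 11 of 12. Striatal markers summed to between 26.2 and 50.1 FPKM in control mice and between 39.0 and 43.3 in RSD mice. The summed FPKM of the excitatory markers was between 88.1 and 435 in control mice and between 421 and 475 in RSD mice, that of 8 endothelial markers between 42.1 and 69.8 and between 35.5 and 39.9, and that of 10 oligodendrocyte markers between 145 and 245 and between 261 and 307. Of the marker lists, the endothelial and oligodendrocyte sums were those that did not overlap between the groups. Their part in the values below was not tested, and in bulk tissue fewer cells of a type cannot be told apart from less RNA per cell. Control mouse 1 stood apart from the other mice. Of 9221 tested lncRNA transcripts spanning at least 2000 but under 10000 bases it was the highest of the 6 mice in 6.56%, against 26.5% of the 1129 that spanned less than 600 bases.

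The antisense transcripts were low. The mean FPKM over the 6 mice had a median of 0.918, with 323 of 594 under 1, 98 at 2 or more and 18 at 5 or more. The median was 1.35 over the other tested lncRNA transcripts outside mRNA loci and 2.38 over those within mRNA loci. In single mice the median over the antisense transcripts lay between 0.894 and 0.95 in controls and between 0.868 and 0.901 in RSD mice. Of the 594, 322 were at 0.5 FPKM or more in all 6 mice, 78 in exactly 3, and 45 were listed at 0 in some mouse. Among them 10 passed the filter through a single group, 4 through the RSD mice and 6 through the controls.

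Most antisense transcripts were below the gene they overlapped. The median ratio of antisense to partner was -2.52 on the log2 scale, which is 17.4% of the partner, and 464 of 594 were below the partner in each of the 6 mice. The 33 that were above it in each mouse included 18 inside the partner and 7 head-to-head. The ratio was highest for spanning pairs, with a median of 47.0% of the partner, and lay at 22.7% for tail-to-tail, 16.5% for internal and 15.0% for head-to-head pairs. The median partner was at 1.73 FPKM in the spanning pairs and at 6.95 in the head-to-head pairs, while the antisense medians were 1.05 and 0.794. The level of an antisense transcript showed little relation to that of its partner. The Spearman coefficient was 0.08 and Pearson's r 0.12 over the 594 pairs, which share libraries and in part partners. Antisense transcripts had a median of 0.941 FPKM opposite the 58 partners under 1 FPKM and of 1.01 opposite the 191 at 10 FPKM or more.

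**Figure D1:**
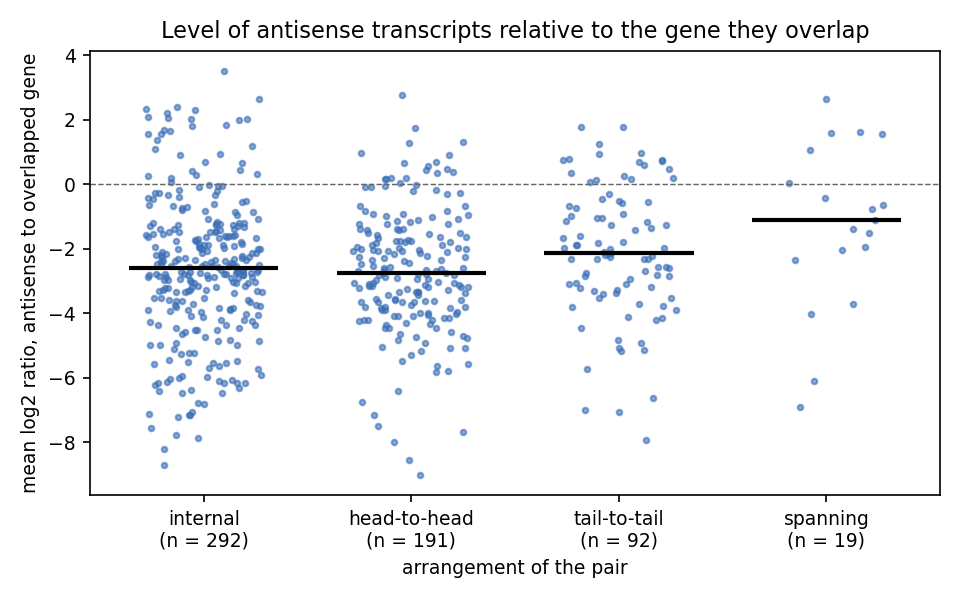
Mean log2 ratio of antisense transcript to partner over 6 mice (y axis) by arrangement of the pair (x axis), with a point per antisense transcript and a bar at the median. Most points lie below the dashed line of equal level, and the median of the 19 spanning pairs, -1.09, is above that of the 191 head-to-head pairs, -2.74.

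The highest antisense transcript was mitochondrial. NONMMUT071600.2 (MT, 11720 to 14070, minus strand) ran opposite the whole of mt-Nd5, a subunit of respiratory complex I. It began at the same base as RefSeq ND6 (13552 to 14070), the complex I subunit that is encoded on that strand. The span of ND6, a protein-coding gene, lay wholly within that of NONMMUT071600.2. The mRNA table held 12 mitochondrial transcripts, none of them on the minus strand. NONMMUT071600.2 stood at 226, 137 and 112 FPKM in controls 1, 2 and 3 and at 89.5, 73.5 and 81.3 in RSD mice 1, 2 and 3. All 3 RSD mice were below all 3 controls, and control mouse 1 was highest. The log2 fold change was -0.90 ± 0.27 (SE, limma adjusted p = 0.918) and -0.61 without control mouse 1. The partner mt-Nd5 was at 427, 762 and 614 in controls and 564, 506 and 559 in RSD mice, with groups that overlapped. A shorter antisense transcript, NONMMUT071594.2, lay opposite mt-Nd3, mt-Co3 and mt-Nd4l and was at 16.5, 9.48 and 6.03 in controls and 5.66, 5.14 and 5.43 in RSD mice. Its log2 fold change was -0.85, and -0.48 without control mouse 1. Its partner mt-Nd3, another complex I subunit gene, was at 120, 115 and 91.7 in controls and 91.6, 76.2 and 85.4 in RSD mice, with groups that did not overlap and a log2 fold change of -0.36. Without control mouse 3 both mitochondrial antisense transcripts were called lower at the threshold described with the comparison of all lncRNA transcripts, NONMMUT071600.2 at -1.12 and NONMMUT071594.2 at -1.2.

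The highest nuclear antisense transcript was even across the mice. NONMMUT058238.2, 438 bases inside Shq1, a factor that assembles small nucleolar ribonucleoproteins, was at 19.4, 16.6 and 19.5 in controls and 18.5, 19.5 and 19.4 in RSD mice. Shq1 was at 1.23 to 2.12 FPKM, so that the antisense transcript was above its partner in every mouse. MERGE.23521.1, 364 bases inside Arhgap21, which encodes a GTPase-activating protein, was at 39.0 in control mouse 1 and between 7.90 and 12.0 in the other 5 mice. MERGE.36476.1, 8463 bases inside the coatomer gene Copg2 and downstream of the imprinted gene Mest, was at 5.05, 8.23 and 10.2 in controls and 14.9, 4.37 and 15.4 in RSD mice. RSD mouse 2 was thus the lowest and the other RSD mice the highest of the 6.

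Of the other antisense transcripts among the 10 highest, MERGE.43617.1 in Tbc1d9, a Rab GTPase-activating protein gene, ranged from 6.41 to 17.9, and MERGE.22299.1 in Gnaq, the gene of a G protein alpha subunit, from 5.06 to 12.2. NONMMUT025494.2 in the zinc finger gene Zc3h7a ranged from 4.03 to 11.6, and NONMMUT058727.2 in Rimklb, which encodes an enzyme that makes N-acetylaspartylglutamate, from 3.28 to 12.8. In these 4 control mouse 1 was the highest. NONMMUT011559.2 in Spag9, a scaffold of the JNK pathway, ranged from 4.68 to 9.33, with its highest values in RSD mouse 2 and control mouse 3. All 5 spanned 253 to 525 bases and their groups overlapped.

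Such short spans set control mouse 1 apart over the antisense transcripts as a group. Of the 55 that spanned less than 600 bases, 26 (47.3%) were highest in control mouse 1, and their median was 2.07 FPKM in that mouse and between 1.07 and 1.35 in the other 5. Of the 269 that spanned at least 2000 but under 10000 bases, 49 (18.2%) were highest in that mouse. The cause was not tested.

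**Figure D2:**
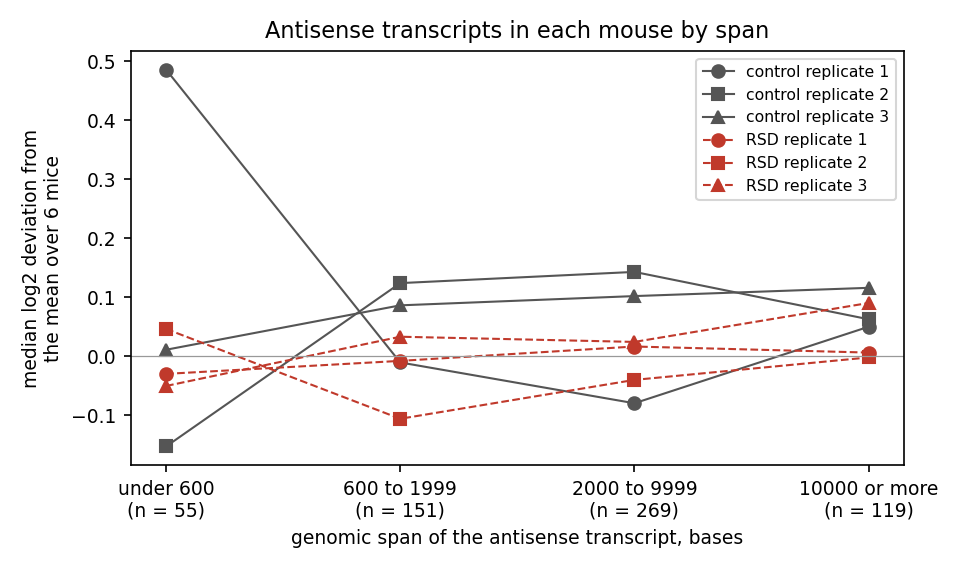
Median log2 deviation of each mouse from the mean over the 6 mice (y axis) for antisense transcripts in 4 classes of genomic span in bases (x axis), with controls in grey and RSD mice in red. In the 55 transcripts under 600 bases control replicate 1 lies at 0.486 and the other 5 mice between -0.153 and 0.0463, while the mice lie closer together in the longer classes.

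RSD mice were then compared with controls across all tested lncRNA transcripts. The study took as different what had an absolute log2 fold change of 1 or more together with an unadjusted p no larger than 0.05, and that threshold is applied here to a two-sided limma test on log2(FPKM + 0.1). By it 11 of the 594 antisense transcripts were called, 1.85%, against 2.43% of all 23640 tested. Of these, 4 were called higher in RSD mice (1.07% of all tested were) and 7 lower (1.37% of all tested). After quantile normalization the split was 7 higher and 4 lower, and with the medians of the mice set equal it was 7 and 3. No antisense transcript had a limma adjusted p under 0.05, against 0.102% of all tested, and the smallest was 0.573. By the unadjusted limma test alone 23 were past 0.05 (3.87%, against 5.28% of all tested). In 68 the groups did not overlap (11.4%, against 11.0% of all tested), 26 with RSD mice higher (3.49% of all tested) and 42 with RSD mice lower (7.49% of all tested). Of the 10 that passed the filter through a single group, which had to differ, all 10 are among these 68, and 2 are among the 4 called higher. By the same threshold 1.62% of the other tested lncRNA transcripts outside mRNA loci and 4.63% of those within mRNA loci were called. The share called among the antisense transcripts was thus below that of all lncRNA transcripts and near that of the others outside mRNA loci. The median log2 fold change was -0.06 over the antisense transcripts and -0.09 over all tested, and 438 (73.7%) had a log2 fold change under 0.5 in size. By arrangement, 6 of 191 head-to-head, 3 of 292 internal, 2 of 92 tail-to-tail and 0 of 19 spanning transcripts were called.

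**Figure D3:**
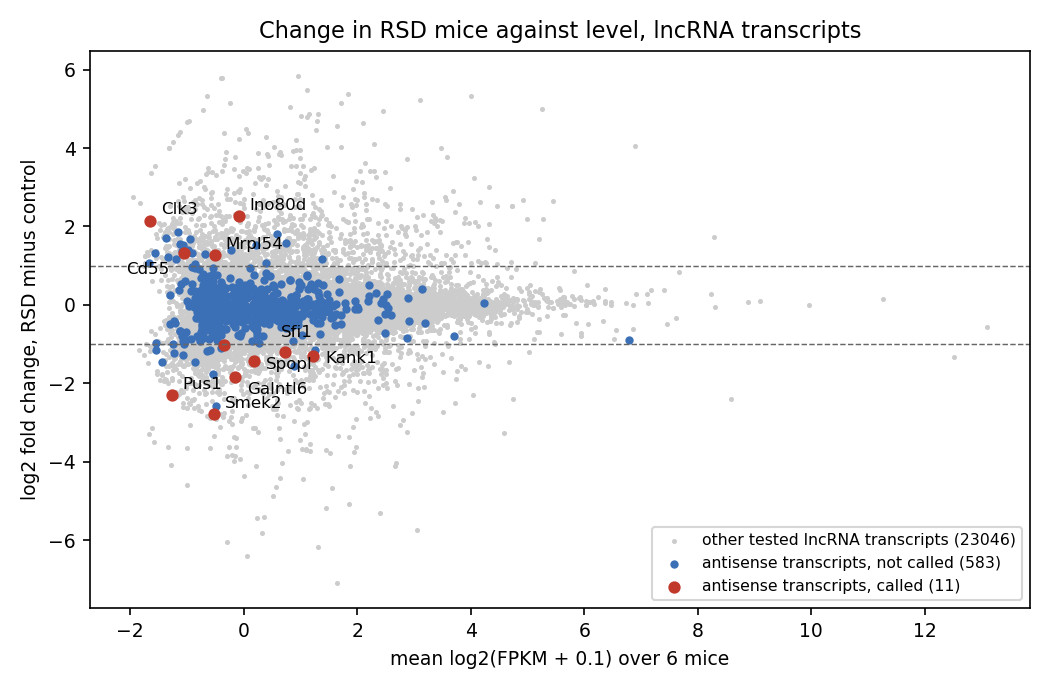
Log2 fold change of RSD against control (y axis) against mean log2(FPKM + 0.1) over 6 mice (x axis) for the tested lncRNA transcripts, with antisense transcripts in blue, the 11 called ones in red, 10 of them with the name of the partner, and dashed lines at a log2 fold change of 1 in each direction. The called transcripts lie at low levels, from a mean of 0.331 FPKM opposite Clk3 to 2.65 opposite Kank1.

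The antisense transcript called higher with the smallest p was NONMMUT075573.1 (chromosome 1, 63114096 to 63115331, plus strand, overlap of 239 bases with Ino80d). It lay on the strand of Ino80dos and covered the whole stretch printed above, so its own start was further upstream. It was at 0.179, 0.854 and 0.196 FPKM in controls and at 2.06, 2.09 and 1.77 in RSD mice. All RSD mice were above all controls, and control mouse 2 was the nearest to them. The log2 fold change was 2.27 ± 0.50 (SE, limma adjusted p = 0.648). It was called without each mouse in turn, with log2 fold changes from 1.96 to 2.85, and without control mouse 2 its adjusted p was 0.042. Ino80d was at 3.63, 4.26 and 5.62 in controls and 4.25, 4.39 and 4.48 in RSD mice, which is a log2 fold change of -0.02. A second antisense transcript on the strand of Ino80dos, NONMMUT001227.2, began further downstream and reached into Ndufs1, a complex I subunit gene. It was at 0.625, 0.738 and 0.776 in controls and 0.725, 0.384 and 0.903 in RSD mice, with groups that overlapped and a log2 fold change of -0.14.

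MERGE.43177.2 had the smallest p among those called lower (chromosome 8, 58911982 to 58914500, plus strand). It overlapped 659 bases at the start of Galntl6, a member of the family of enzymes that begin O-linked glycosylation, and lay on the strand of the RefSeq gene BC030500. It was at 2.41, 1.3 and 1.3 in controls and 0.546, 0.217 and 0.426 in RSD mice. All RSD mice were below all controls, with control mouse 1 highest. The log2 fold change was -1.84 ± 0.38 (SE, limma adjusted p = 0.573), and the call held without each mouse in turn, from -2.06 to -1.55. Galntl6 was at 8.76, 11.2 and 12.2 in controls and 11.2, 11.7 and 12.1 in RSD mice, which is a log2 fold change of 0.13.

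The third antisense transcript whose call held without each mouse was NONMMUT139581.1 (chromosome 10, 81264724 to 81266857, plus strand), inside the span of Mrpl54, a gene of the large subunit of the mitochondrial ribosome. It was at 0.536, 0.366 and 0.219 in controls and 0.977, 1.17 and 0.860 in RSD mice, so that all RSD mice were above all controls. The log2 fold change was 1.27 ± 0.34 (SE, limma adjusted p = 0.882), and it ranged from 1.01 to 1.51 without each mouse. Mrpl54 was at 4.13, 1.80 and 1.22 in controls and 2.46, 2.44 and 1.58 in RSD mice, which is a log2 fold change of 0.02. The antisense transcript began 1359 bases downstream of the end of Matk, a gene on the same strand.

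**Figure D4:**
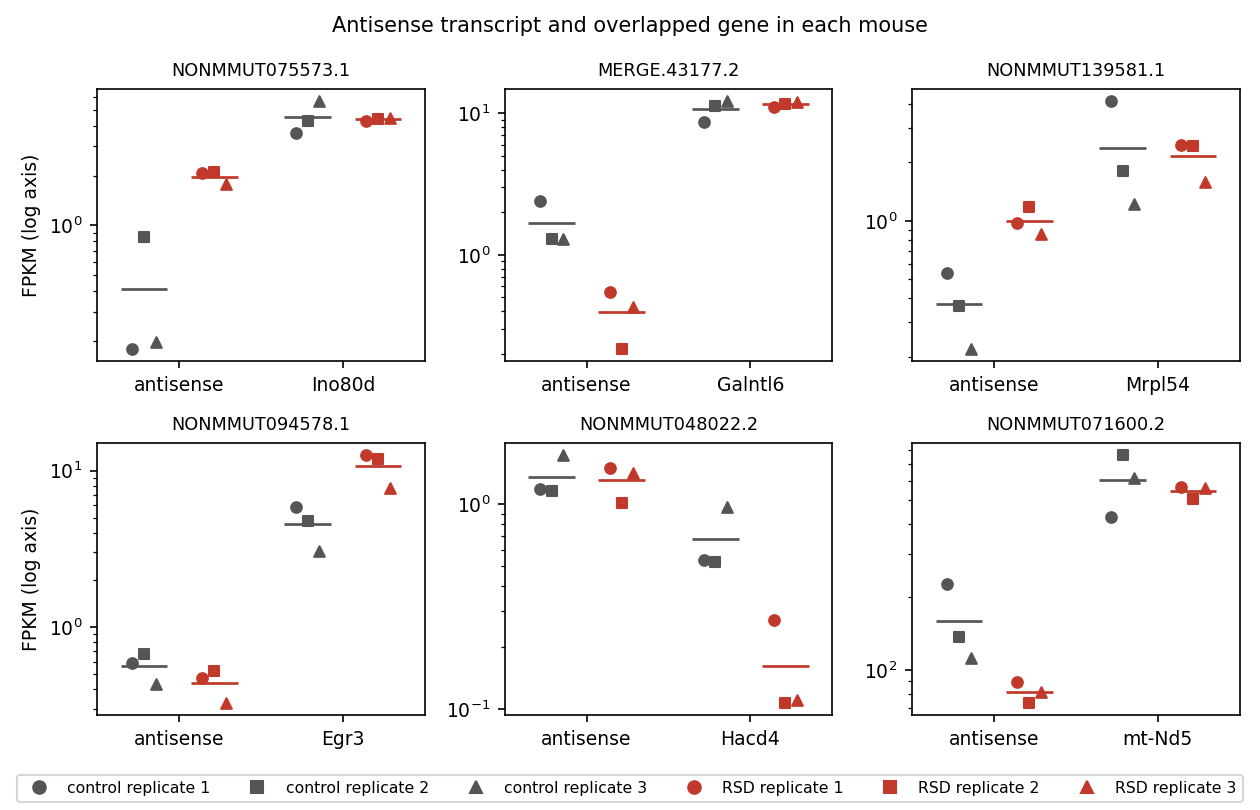
FPKM on log axes in each of 3 control mice (grey) and 3 RSD mice (red) for 6 antisense transcripts (left in each panel) and their partners (right), with a marker shape per replicate number and bars at the group means. The antisense transcripts to Ino80d, Galntl6 and Mrpl54 differ between groups that do not overlap while their partners overlap, and Egr3 and Hacd4 differ between groups while their antisense transcripts overlap.

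The calls of the other 8 antisense transcripts ended when at least 1 mouse was left out, and 7 of these are described. MERGE.5601.11, which overlapped the end of Sfi1, a gene of a centrosomal protein, was at 2.14, 1.89 and 3.42 in controls and 1.24, 1.17 and 0.669 in RSD mice, with no overlap of the groups. Its log2 fold change was -1.19 ± 0.33 (SE, limma adjusted p = 0.892), and -0.95 without control mouse 3 and -0.94 without RSD mouse 3. The 4 other antisense transcripts of Sfi1 were not called, with log2 fold changes from -0.92 to 0.20, and Sfi1 itself was at 4.71 to 5.46 in controls and 5.04 to 5.29 in RSD mice.

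Several of the remaining calls rested on values of 0, which in FPKM tables can be a failed estimate. NONMMUT153269.1, head-to-head with Clk3, a kinase of splicing factors, was at 0.249, 0 and 0 in controls and 0.714, 0.509 and 0.515 in RSD mice. It passed the filter through the RSD mice alone, so its groups had to differ, and the log2 fold change was 2.15 (limma adjusted p = 0.927). As the unadjusted p then missed 0.05, the call ended without RSD mouse 1 (2.01), 2 (2.22) or 3 (2.22). NONMMUT053785.2, tail-to-tail with Pus1, a pseudouridine synthase of transfer RNA, was at 1.09, 0.857 and 0.586 in controls and 0, 0.548 and 0 in RSD mice. RSD mouse 2 was thus just below the lowest control. The difference was -2.30 on the log2 scale (limma adjusted p = 0.927), and by the unadjusted p the call ended without RSD mouse 1 (-1.86), RSD mouse 3 (-1.86) or control mouse 1 (-2.12), 2 (-2.28) or 3 (-2.52). NONMMUT009030.2, head-to-head with Smek2, a regulatory subunit of protein phosphatase 4, was named after its values were seen, since its groups overlapped. It was at 2.24, 1.47 and 1.60 in controls and 0, 1.78 and 0 in RSD mice, with a log2 fold change of -2.79 (limma adjusted p = 0.927). This call ended, by its unadjusted p, without RSD mouse 1 (-2.09), RSD mouse 3 (-2.09) or control mouse 1 (-2.62), 2 (-2.91) or 3 (-2.85).

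The last 3 called transcripts had groups that did not overlap. NONMMUT076283.1 spanned 94500 bases and overlapped 168 bases of Cd55, a gene that restrains complement, and was at 0.0853, 0.428 and 0.193 in controls and 0.742, 0.524 and 0.747 in RSD mice. It too passed the filter through the RSD mice alone, and the log2 fold change was 1.32 (limma adjusted p = 0.927). The call ended without control mouse 1 (0.96), and by its unadjusted p without control mouse 3 (1.29) or RSD mouse 1 (1.25), 2 (1.46) or 3 (1.24). Another antisense transcript opposite Cd55, NONMMUT002531.2, was below the filter and went the other way. It was at 0.565, 0.452 and 0.577 in controls and at 0 in each RSD mouse. MERGE.23552.1, 226 bases inside Spopl, an adaptor of a cullin ubiquitin ligase, was at 3.98, 0.976 and 1.36 in controls and 0.811, 0.392 and 0.633 in RSD mice, with control mouse 1 well above the rest. The log2 fold change of -1.43 (limma adjusted p = 0.927) fell short of a call without control mouse 1 (-0.86), and by its unadjusted p without RSD mouse 2 (-1.18) or 3 (-1.47). MERGE.22452.1, 323 bases inside Kank1, an actin-regulating gene, was at 5.27, 2.98 and 2.95 in controls and 0.615, 1.87 and 2.22 in RSD mice, and RSD mouse 1 was the lowest. The log2 fold change of -1.32 (limma adjusted p = 0.927) was no longer called without RSD mouse 1 (-0.79), and by its unadjusted p without control mouse 1 (-1.05), 2 (-1.45) or 3 (-1.45). Without control mouse 1, 13 antisense transcripts in all were called higher and 6 lower, without control mouse 2 the counts were 7 and 8, and without RSD mouse 2 they were 4 and 13.

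The partners were tested by gene symbol. Of 490, 478 passed the filter and 15 (3.14%) were called, against 2.42% of all 12277 symbols, 11 of them higher (1.85% of all symbols) and 4 lower (0.57% of all symbols). Without control mouse 1 there were 26 higher and 3 lower, and 4 higher and 4 lower without RSD mouse 1. Without RSD mouse 2, and likewise without control mouse 3, 6 were called higher. The groups did not overlap in 77 (16.1%, against 16.1% of all symbols). In no pair were the antisense transcript and the partner both called.

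A single partner had an adjusted p under 0.05, as 0.0733% of all symbols did. Without control mouse 1 there were 5 (Creg2, Dctn1, Idh3b, Sp2 and Stub1), without control mouse 2 it was Nat8l alone, and without any other mouse there was none. Sp2, a zinc finger transcription factor gene of the Sp family, was listed at 0 in all 3 controls. In RSD mice it was at 2.38, 2.61 and 1.64 (limma adjusted p = 0.0122), which gives no fold. Sp2 passed the filter through the RSD mice alone, so its groups had to differ. Its adjusted p was 0.15 with a pseudocount of 0.01 and 0.0693 with a filter at 1 FPKM. Without a mouse it was 0.0211 (control mouse 1), 0.0526 (control mouse 2), 0.0552 (control mouse 3), 0.165 (RSD mouse 1), 0.152 (RSD mouse 2) and 0.0819 (RSD mouse 3). The antisense transcript NONMMUT011771.2, tail-to-tail with Sp2, was at 1.10, 1.37 and 1.41 in controls and 1.46, 0.291 and 1.19 in RSD mice. RSD mouse 2 was the lowest and the groups overlapped.

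Egr3, an immediate early transcription factor gene, was the partner with the clearest place in neuronal activity. It was at 5.88, 4.78 and 3.08 in controls and 12.5, 11.9 and 7.71 in RSD mice, all RSD mice above all controls (log2 fold change 1.22, limma adjusted p = 0.523). Its antisense transcript NONMMUT094578.1, which spanned 194911 bases and overlapped 1378 bases at the start of Egr3, was at 0.590, 0.671 and 0.434 in controls and 0.470, 0.524 and 0.328 in RSD mice. These groups overlapped, with a log2 fold change of -0.30, and the ratio differed by -1.52 (limma adjusted p = 0.682). Of 24 immediate early genes tested, 10 were called higher (1.85% of all symbols were) and none lower (0.57% of all symbols), and Egr3 was the one with an antisense transcript here.

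Among the other called partners were Nrxn2, a presynaptic adhesion gene at 4.18 to 4.19 in controls and 12.1, 14.0 and 6.29 in RSD mice, the secreted neuropeptide precursor gene Vgf at 18.4, 5.90 and 6.03 and at 50.5, 28.95 and 13.02, and the neurofilament gene Nefm at 15.5, 8.75 and 8.84 and at 24.4, 24.8 and 17.4. Vgf in control mouse 1 was above Vgf in RSD mouse 3, while the groups of Nrxn2 and Nefm did not overlap. The antisense transcript inside Nrxn2, NONMMUT105829.1, was at 0.196, 1.29 and 1.19 in controls and 0.563, 1.3 and 1.38 in RSD mice, with groups that overlapped. The 4 partners called lower were Cd46, Hacd4, Herc4 and Wnt7b. Of the 15 calls, those of Hacd4, Nrxn2 and Sp2 held without each mouse in turn and the other 12 did not. Sp2 and Pcdha2 passed the filter through the RSD mice alone and Hacd4 through the controls alone, so their groups had to differ. The filter was set on all 6 mice, so leaving out a mouse did not lift this limit.

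The ratio of antisense transcript to partner was tested within mice, over 956 pairs of lncRNA and opposite symbol. Of the 594, 34 ratios (5.72%) were called, against 5.54% of all 956, with 11 higher in RSD mice (2.62% of all pairs) and 23 lower (2.93% of all pairs). After quantile normalization the split was 20 and 12, and with equal medians 19 and 16. No ratio of the 594 had an adjusted p under 0.05, against 0.105% of all pairs, and the smallest was 0.11. Without control mouse 1 there were 2, opposite Creg2 and Stub1, with a smallest adjusted p of 0.00761. That of NONMMUT011771.2, opposite Sp2, was 0.022 without RSD mouse 2 and 0.0159 with a pseudocount of 0.01. The difference of this ratio was -1.93 with a pseudocount of 1 and -8.44 with one of 0.01. Of the 34 called ratios, 3 belonged to antisense transcripts past the filter through a single group. Ratios opposite Sp2, Pcdha2 and Hacd4 were also called. These partners passed the filter through a single group, so the partner side of these ratios had to differ. Of the 34, 5 were also called as a transcript, 11 had a called partner and 18 had neither. In 19 the partner had the larger log2 fold change. Without control mouse 1 the counts were 17 higher and 43 lower, and 14 were lower without RSD mouse 1. Leaving out each mouse in turn kept 12 of the 34 calls throughout.

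The 5 ratios whose antisense transcript was also called were those of Ino80d (a log2 difference of 2.29), Mrpl54 (1.25) and Clk3 (1.91), which were higher in RSD mice, and those of Galntl6 (-1.97) and Sfi1 (-1.19), which were lower, each with an adjusted p of 0.682. In other pairs the partner carried the difference. Hacd4, which encodes an enzyme of very-long-chain fatty acid elongation, was at 0.532, 0.522 and 0.970 in controls and 0.271, 0.107 and 0.110 in RSD mice. Its antisense transcript NONMMUT048022.2 was at 1.19, 1.16 and 1.74 and at 1.5, 1.01 and 1.43, so that it was above the gene in every mouse, and the ratio was higher in RSD mice by 1.52 on the log2 scale (limma adjusted p = 0.499). A second one, NONMMUT148097.1, gave 1.4 with the same partner values. Cd46, a complement regulator gene, was at 3.95, 5.80 and 5.07 in controls and 1.82, 2.38 and 2.65 in RSD mice, with no overlap. One of its 4 antisense transcripts, NONMMUT077189.1, was at 5.01, 6.42 and 5.53 and at 4.13, 5.73 and 7.35. The ratio of this transcript to Cd46 was higher by 1.07 (limma adjusted p = 0.682). Cd46 was thus below NONMMUT077189.1 in every mouse, and the gap was wider in each RSD mouse than in any control. The ratio of NONMMUT004510.2 to Cd46 was also called, and those of MERGE.3062.14 and MERGE.3062.29 were not.

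In the pairs of Idh3b and Calm3, as in others of the 18, the ratio was lower with neither side called. Idh3b, a subunit of the isocitrate dehydrogenase of the citric acid cycle, was at 40.2, 7.74 and 10.01 in controls and 29.1, 25.2 and 29.1 in RSD mice. NONMMUT039860.2, which began in the Idh3b promoter printed above and overlapped the gene by 71 bases, was at 1.61, 0.698 and 0.596 and at 0.366, 0.599 and 0.343. Control mouse 1 was the highest on both sides, and the ratio differed by -1.83 on the log2 scale (limma adjusted p = 0.682). Calm3, a calmodulin gene, was at 248, 57.1 and 81.1 in controls and 252, 118 and 119 in RSD mice, and MERGE.39054.1 inside it at 3.97, 1.28 and 1.76 and at 2.05, 1.17 and 1.06, with a ratio difference of -1.12 (limma adjusted p = 0.682). The antisense transcript was highest in control mouse 1, and Calm3 in RSD mouse 1 and control mouse 1. A further pair, named after its values were seen, was that of Dlx1, a transcription factor gene of interneurons. The spanning antisense transcript NONMMUT037825.2 was at 2.49, 1.55 and 1.59 in controls and 1.48, 2.61 and 1.64 in RSD mice. Dlx1 was at 0.106, 0.0838 and 0.0907 and at 0.451, 0.994 and 0.110. It reached 0.5 FPKM in RSD mouse 2 alone and was thus below the filter.

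The 29 antisense transcripts that began in the promoter window of the partner were low, with mean FPKM from 0.413 to 5.44 and a median of 0.896. None was called and 2 of their ratios were. The highest, NONMMUT135567.1 at the promoter of the phosphatase gene Ctdspl, was at 5.54, 4.94 and 4.89 in controls and 5.60, 7.00 and 4.66 in RSD mice. At Gadd45a, a stress-inducible gene of growth arrest and DNA repair, NONMMUT057281.2 was at 0.805, 1.39 and 0.805 in controls and 2.08, 1.37 and 1.66 in RSD mice. Control mouse 2 was just above RSD mouse 2, and the log2 fold change was 0.74 (limma adjusted p = 0.927). Gadd45a was at 0.634, 0.206 and 0.568 in controls and 0.787, 0.844 and 0.854 in RSD mice, which is a log2 fold change of 0.80. At Emx2, a cortical patterning gene, NONMMUT035282.2 was at 0.747, 0.903 and 0.499 in controls and 0.757, 0.452 and 0.433 in RSD mice, and Emx2 was at 1.80 to 1.93 and 1.53 to 1.80.

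RefSeq names some of these RNAs for the gene they oppose. The strand was known here for 27025 of 49997 RefSeq genes, and those alone were matched. Of the 594, 148 lay on the strand of a lncRNA gene among them. Another 34 lay on that of a protein-coding gene absent from the mRNA table, and 412 were matched to none of the 27025. Mkln1os, opposite the muskelin gene Mkln1, was at 0.325, 0.528 and 0.724 in controls and 0.746, 0.467 and 0.731 in RSD mice (NONMMUT123552.1, log2 fold change 0.29). Mkln1 was at 20.5, 17.6 and 18.3 and at 25.7, 24.9 and 26.4, all RSD mice above all controls (log2 fold change 0.45). In a pair of others control mouse 1 was with the RSD mice. Pcsk2os1, opposite the prohormone convertase gene Pcsk2, was at 0.801, 0.0707 and 0.042 in controls and 0.653, 0.673 and 0.801 in RSD mice (NONMMUT040202.2). It was not called, with a log2 fold change of 1.53 (limma adjusted p = 0.932), and was called at 2.37 without control mouse 1. Lppos, opposite the focal adhesion gene Lpp, was at 0.507, 0.0608 and 0 and at 0.501, 0.626 and 0.690 (NONMMUT026030.2). It was likewise not called at 1.71 (limma adjusted p = 0.927) and called at 2.47 without control mouse 1. Each of these genes had another antisense transcript, below the filter. NONMMUT109838.1 opposite Pcsk2 was at 0.0678, 1.01 and 0.996 in controls and 0.323, 0.118 and 0.303 in RSD mice. NONMMUT026031.2 opposite Lpp was at 0.762, 0.978 and 0 in controls and 0.376, 0 and 0 in RSD mice. Zfp335os (NONMMUT041110.2) was at 0.749, 0.573 and 0.272 in controls and 0.271, 0.602 and 0 in RSD mice, with groups that overlapped. Zfp85os, Stk35os1 and Pigbos1 had log2 fold changes from -0.02 to 0.02, and RefSeq annotates the last of these as protein-coding.

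Genes of cortical identity and synaptic transmission were followed from lists, whose counts of called genes are read against the 1.85% of all symbols called higher and the 0.57% called lower. Opposite 44 listed cortical transcription factor genes there were 10 antisense transcripts at 8 genes (among them Dlx1, Emx2, Meis2, Nr2f1, Pou3f1, Zeb1 and Zfhx4). Of the 44 genes, 35 passed the filter and were tested, and Dlx1 was not among these. With all 6 mice none of the 10 was called, and neither was any of the 35 genes. One of the 2 antisense transcripts of Nr2f1, a nuclear receptor gene of cortical area patterning, was the most uneven. NONMMUT018421.2 was at 0.895, 2.30 and 2.11 in controls and 2.26, 0 and 0.00621 in RSD mice, so that 2 RSD mice were near 0 and the other was level with control mouse 2 (log2 fold change -2.57, limma adjusted p = 0.932). Without RSD mouse 1 it was called, at -4.08. The other antisense transcript of Nr2f1, NONMMUT018422.2, was not called with all 6 mice and had a log2 fold change of -0.78.

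Glutamate receptor genes had 1 antisense transcript, inside the NMDA receptor subunit gene Grin2d. MERGE.39813.5 was at 2.84, 1.56 and 2.45 in controls and 3.43, 2.17 and 2.39 in RSD mice, above Grin2d in every mouse (0.916 to 1.09 and 1.22 to 1.87). Of the 24 tested glutamate receptor genes 1 was called higher and 1 lower. Synaptic scaffold and adhesion genes had antisense transcripts at Nlgn1, Nrxn2 and Shank1, none of them called, and 3 of 34 genes were called higher (1.85% of all symbols were). Of 20 genes of presynaptic release none was called. The 14 GABA receptor genes had 1 antisense transcript, at Gabra5 (NONMMUT125194.1, 0.778 to 0.967 and 0.677 to 0.980), and none of these genes was called.

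Ion channel genes had 4 antisense transcripts, among them those at Kcnh7, Kcnj3 and Scn1a. The one that overlapped the start of the sodium channel gene Scn1a, NONMMUT037653.2, was at 1.52, 0.443 and 1.16 in controls and 1.56, 1.57 and 1.37 in RSD mice, with control mouse 2 lowest. Of 31 ion channel genes 1 was called higher. Of 15 tested glucocorticoid-responsive genes 2 were called higher, and the one with an antisense transcript was Nr3c2, the mineralocorticoid receptor gene. NONMMUT066191.2 was at 0.0229, 1.09 and 0.749 in controls and 0.919, 0.586 and 1.12 in RSD mice, and its groups overlapped. Of 24 imprinted genes none was called, and antisense transcripts lay opposite Copg2 and Snrpn. Genes that handle double-stranded or antisense RNA had no antisense transcript of their own. Of these, 24 were tested and none was called higher, and Adarb1, which encodes an adenosine deaminase that edits double-stranded RNA, was called lower. Adarb1 was at 18.1, 10.6 and 7.28 in controls and 4.97, 5.65 and 5.41 in RSD mice, with no overlap (log2 fold change -1.05, limma adjusted p = 0.533). The call of Adarb1 ended without control mouse 1 (-0.71) or, by its unadjusted p, without RSD mouse 1 (-1.0). Drosha, of the same list, went the other way and was not called (log2 fold change 0.80, limma adjusted p = 0.502). It was at 9.84, 6.86 and 7.15 in controls and 13.4, 15.3 and 12.6 in RSD mice, with no overlap. Over the 24 genes the groups did not overlap in 1 with RSD mice higher and in 4 with RSD mice lower (16.1% of all symbols did not overlap). The median log2 fold change of the 24 was -0.04, against 0.03 over all symbols.

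Several partners had more than 1 antisense transcript. Of the 76 such genes, which 180 of the 594 opposed, 49 had them in more than 1 locus and 36 had log2 fold changes of both signs. In 3 of the 76 at least 1 was called and in none were all called. The most were 5, at Sfi1 and at Macrod1, which encodes a hydrolase of ADP-ribose. Macrod1 was at 0.641, 0 and 0.165 in controls and 1.16, 0.857 and 0.629 in RSD mice. Its antisense transcripts had mean FPKM up to 2.09, with log2 fold changes from -0.38 to 0.35, and MERGE.22130.1 was the most even, at 1.84, 1.94 and 1.88 in controls and 2.05, 2.07 and 2.01 in RSD mice.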

How the data were processed

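Total RNA from the PFC of 3 RSD and 3 control mice was sequenced after ribosomal RNA depletion. The authors assembled and quantified transcripts and deposited FPKM values for each mouse in separate lncRNA and mRNA tables. The submitters' processing notes name Bowtie 0.12.2 and mm9, but 99.882% of 31440 mRNA transcripts matched by symbol overlapped their RefSeq gene on GRCm38, and positions are given as on that build. Deposited columns of fold changes and p-values were not used. Overlap was taken between genomic spans, introns included, with a minimum of 1 base, so exons need not overlap.

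Values were tested as log2(FPKM + 0.1) with limma 3.58.1 in R 4.3.3 (moderated test with trend, two-sided), over 23640 lncRNA transcripts, 12277 mRNA symbols and 956 ratios at 0.5 FPKM or more in at least 3 mice, with Benjamini-Hochberg adjustment over each table. The test of the study, which needs counts, could not be used. Its threshold was kept. For ratios the filter applied to the lncRNA transcript alone, so a partner could be near 0. FPKM carry no depth, so no counting intervals are given. Fold changes on this scale understate the change of low transcripts. Antisense transcripts were named if past the threshold with groups apart, among the 10 highest, named by RefSeq as antisense, with the smallest p in a gene list, or among the 5 ratios with the smallest p in each direction. The members and lists were chosen with earlier results of these data known. Lists covered markers of neurons, glia, endothelium, choroid plexus, striatum, olfactory bulb and blood, and the functional groups described above. Of the 11 marker lists, those of interneurons, astrocytes and blood each held 1 gene called higher, those of endothelium and striatum 1 called lower, and the other 6 none. Alternatives were another pseudocount, filter, scaling, partner or overlap, sums over loci, no trend, a replicate block and leaving out each mouse. Sequences are from RefSeq. Results for some genes are not reported here.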

Additional observations from a re-analysis of the deposited data

How the results depend on the processing

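With a pseudocount of 1 in place of 0.1, 1 antisense transcript was called higher and 0 lower, 3 ratios higher and 11 lower, and 1 partner lower. With a filter at 1 FPKM the counts were 1 and 3 for antisense transcripts and 7 and 14 for ratios. Without a filter 12 antisense transcripts were called lower. After quantile normalization the counts were 7 and 4 for antisense transcripts and 20 and 12 for ratios, and with equal medians 7 and 3 for antisense transcripts and 19 ratios higher. These scalings moved the median log2 fold change of all 956 ratios from -0.07 to 0.11 and 0.10, so the direction of the split depends on the scaling. Leaving out each mouse gave 3 to 13 antisense transcripts higher and 6 to 13 lower, 8 to 17 ratios higher and 14 to 43 lower, and 4 to 26 partners higher and 3 to 5 lower. Of the 42 named antisense transcripts followed without each mouse, 12 changed sign without some mouse, none of them called: for example, the log2 fold change of NONMMUT066191.2 at Nr3c2 went from 0.93 to -0.08 without control mouse 1, and that of NONMMUT025494.2 at Zc3h7a from -0.25 to 0.16. None of the 10 called transcripts and 10 called ratios named by rule changed sign under any of these settings.

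The replicate numbers did not pair the mice: the deviations of same-numbered mice correlated at 0.06, -0.05 and 0.08. With the replicate number as a block, 3 antisense transcripts were called higher and 5 lower, 15 partners higher and 4 lower, and 14 ratios higher and 29 lower, and the adjusted p of Sp2 became 0.255. In 2 alternatives chosen after seeing the data, 4 antisense transcripts were called higher and 6 lower without those on the strand of a RefSeq protein-coding gene, and 4 and 5 without those spanning less than 600 bases.

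With 3 mice a group and a median level under 1 FPKM, a difference of the size seen in most pairs could not be told from the spread between mice. Whether reads of the gene were counted for its antisense transcript cannot be read from these tables.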

Other observations

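Among the 34 antisense transcripts matched to the strand of a RefSeq protein-coding gene, the highest were MERGE.14130.1 and MERGE.19614.1. The former lay on the strand of Dzip1, a gene of ciliary signaling, and the latter on that of Daam2, a gene of Wnt signaling. The mitochondrial NONMMUT071600.2, which spans ND6, was higher but was not among the 34. MERGE.14130.1 overlapped the end of Cldn10 and was at 5.92, 6.19 and 5.58 FPKM in controls and 4.63, 6.05 and 6.09 in RSD mice. MERGE.19614.1 overlapped 68 bases of Mocs1 and was at 9.59, 5.15 and 0 in controls and 9.94, 0.779 and 6.61 in RSD mice, so that mice of both groups were near 0 and near 10.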
